A study of Mus musculus with 12 samples.

Results

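The 9 genes described here make, admit or process sugar in the liver or switch those steps on and off: *Pck1*, *Fbp1*, *Ppargc1a*, *Foxo1*, *Irs2*, *Pklr*, *Slc2a2*, *Slc2a5* and *Khk*. They were taken by symbol from a table of 45777 mouse genes, and 9 of 9 were found and passed the filter on low counts in every comparison. Liver RNA came from 12 male C57BL/6 mice aged 10 to 12 weeks, which carried either the WT or the *Gna12* KO label and received either vehicle or acetaminophen (APAP), with 3 mice for each of the 4 combinations. An excess of APAP, a common painkiller, damages hepatocytes, and here a single intraperitoneal dose of 300 mg/kg followed an overnight fast, 6 h before the livers were collected. *Gna12*, the gene targeted under the KO label, encodes the G protein subunit Gα12, and the WT mice were littermates of the same age. Whole liver was used, so fewer cells of a type and less RNA per cell cannot be told apart.

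During a fast the liver makes glucose from lactate, glycerol and amino acids. This gluconeogenesis runs through phosphoenolpyruvate carboxykinase and fructose-1,6-bisphosphatase, and glucagon, acting through cyclic AMP, drives it while insulin restrains it. After a meal the flow turns round: glucose and fructose enter hepatocytes through facilitative transporters and are broken down to pyruvate, with insulin and the sugar-responsive factor ChREBP raising the enzymes of that route.

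The promoters of the 4 genes with the smallest adjusted p-values after APAP are shown first, as the 250 bases just before the RefSeq transcription start (GRCm38.p6), read in the direction of transcription. Capitals mark matches, on either strand, to 3 motifs: ACGTCA, the core of the cyclic AMP response element, TGTTTTG, the core of the insulin response element to which FOXO factors bind, and CACGTG, the palindromic E-box. *Pck1* lies on the + strand and its window is chr2:173152823-173153072. *Slc2a2* (+) is shown at chr3:28697653-28697902, *Slc2a5* (+) at chr4:150119094-150119343 and *Irs2* (-) at chr8:11008930-11009179.
Pck1: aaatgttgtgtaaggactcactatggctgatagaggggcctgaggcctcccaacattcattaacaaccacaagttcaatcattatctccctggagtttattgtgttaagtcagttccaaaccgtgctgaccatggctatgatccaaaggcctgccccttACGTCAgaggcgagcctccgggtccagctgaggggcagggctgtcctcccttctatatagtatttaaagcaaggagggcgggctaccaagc
Slc2a2: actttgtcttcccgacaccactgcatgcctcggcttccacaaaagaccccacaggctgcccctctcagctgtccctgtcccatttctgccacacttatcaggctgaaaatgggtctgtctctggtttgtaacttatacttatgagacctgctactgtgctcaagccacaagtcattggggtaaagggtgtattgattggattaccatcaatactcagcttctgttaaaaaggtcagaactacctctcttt
Slc2a5: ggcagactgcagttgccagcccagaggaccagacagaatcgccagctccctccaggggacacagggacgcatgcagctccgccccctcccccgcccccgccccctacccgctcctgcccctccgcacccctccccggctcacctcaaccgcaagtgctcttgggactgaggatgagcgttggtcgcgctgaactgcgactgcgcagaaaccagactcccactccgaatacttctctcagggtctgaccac
Irs2: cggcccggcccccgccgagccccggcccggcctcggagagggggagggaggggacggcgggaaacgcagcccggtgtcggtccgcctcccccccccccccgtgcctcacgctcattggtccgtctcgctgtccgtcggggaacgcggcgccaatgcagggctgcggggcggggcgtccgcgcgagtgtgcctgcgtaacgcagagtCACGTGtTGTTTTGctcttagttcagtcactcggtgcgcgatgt

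The *Pck1* window held ACGTCA, with its first base 91 bases before the start. The *Irs2* window held CACGTG from 44 bases and TGTTTTG from 37 bases before the start, 1 base apart and not overlapping. None of these letters occurred in the *Slc2a2* and *Slc2a5* windows. Among all 32851 windows of this length, ACGTCA occurred in 6.47%, TGTTTTG in 5.56% and CACGTG in 6.02%. Of the 10 windows searched for the 9 genes (2 for *Pklr*), ACGTCA was also in that of *Ppargc1a* and CACGTG also in that of *Khk*. The *Ppargc1a* window, chr5:51567726-51567975 (-), lies inside the span of that gene, so its outermost start was not searched. The *Khk* window, chr5:30921309-30921558 (+), runs past the first base of that gene's span, 30921436. Its CACGTG, from 71 bases before the start used, lies within the span. The *Fbp1* and *Pklr* windows also reach into their genes' spans. A match describes these letters and not a bound site.

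Per transcript length, the gluconeogenic enzymes were by far the most abundant of these transcripts. The mean over the 12 livers, in TPM, a level scaled by transcript length and library size, was 1853 for *Pck1*, rank 80 of the 26407 genes with any count. *Fbp1* stood at 868 TPM and rank 140, and *Khk* at 198 TPM and rank 534. The glucose transporter gene *Slc2a2* averaged 89.6 TPM and the pyruvate kinase gene *Pklr* 50.7 TPM. *Foxo1* averaged 16.9 TPM, *Irs2* 7.24, *Slc2a5* 3.53 and *Ppargc1a* 3.49. Each gene from *Pck1* down to *Foxo1* was above the next gene of that order in 12 of 12 livers. *Irs2* exceeded *Slc2a5* in only 7 of 12 livers and *Slc2a5* exceeded *Ppargc1a* in 6 of 12, so these 3 levels were not ordered beyond their spread. The last of these orders turned with treatment: in the means, *Slc2a5* was above *Ppargc1a* with vehicle under both labels (4.68 against 4.03 TPM in WT, 7.33 against 3.70 under the KO label) and below it after APAP (1.11 against 2.32 and 1.00 against 3.92).

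**Figure D1:**
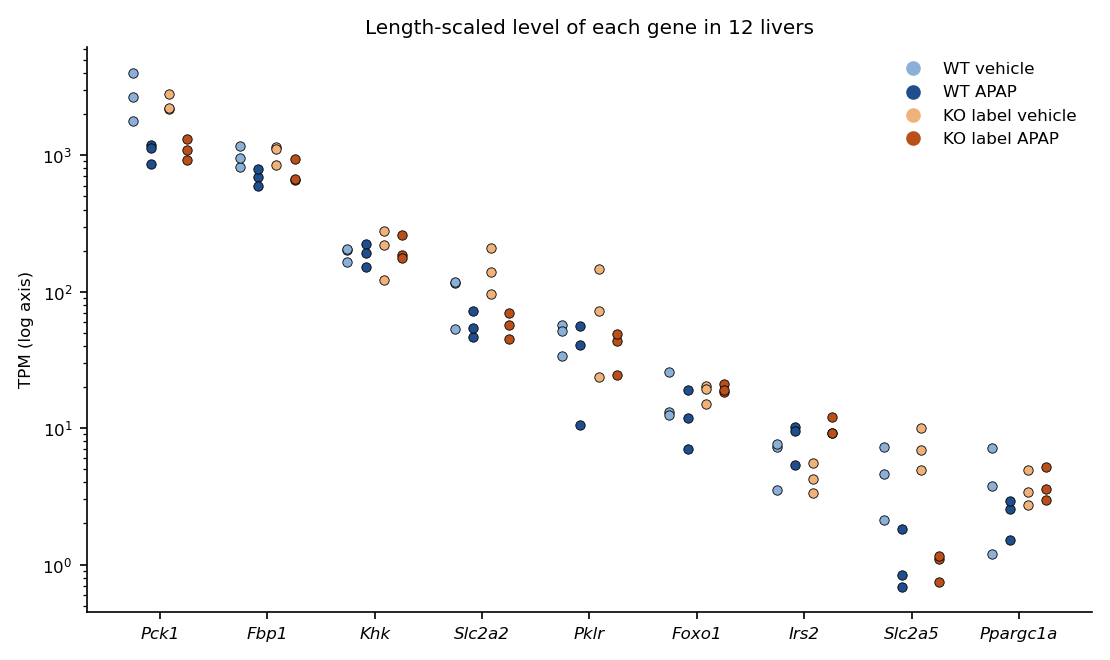
Length-scaled level (TPM, log axis) of the 9 genes in each of 12 livers, ordered by their mean and coloured by group; each point is 1 liver. *Pck1* and *Fbp1* lie highest, and *Slc2a5* separates into vehicle livers at 2.12 TPM or more and APAP livers at 1.81 TPM or less.

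Read totals on genes ran from 49737950 to 69566079 per liver, and *Gna12* was not lower under the KO label: it had 2472 to 4003 counts in the 6 livers labelled KO and 1193 to 4373 in the WT livers. The study genotyped its WT and KO mice by PCR and also assayed *Gna12* in their livers by qRT-PCR. It further immunoblotted the Gα12 protein in livers and in primary hepatocytes of both genotypes. Which part of the gene is deleted is not given in the sources used here, so counts over the whole gene do not settle the label. The genotype is given as a label throughout. WT APAP replicate 1 stood apart, with 238212 *Hba-a1* counts against 2551 to 7713 in the other 11 livers and a TMM scaling factor of 0.750 against 0.892 to 1.13. WT vehicle replicate 2 had the next lowest factor, 0.892. Gene spans below are RefSeq's on GRCm38.p6. Levels of 1 gene across livers are given below as CPM, its counts relative to the library total after scaling by these factors.

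The first question was how APAP changed these genes. With both genotype labels fitted together (6 APAP livers against 6 vehicle livers, edgeR's quasi-likelihood test, Benjamini-Hochberg adjustment over all genes tested, threshold 0.05), *Pck1*, *Fbp1*, *Slc2a2* and *Slc2a5* fell and *Irs2* rose, while *Ppargc1a*, *Foxo1*, *Pklr* and *Khk* did not pass. That makes 5 of 9 genes called, where 25.4% of the 16509 genes tested were called, 14% as higher and 11.4% as lower. In the livers labelled KO (3 against 3) the same 5 genes passed in the same directions, where 22.6% of 15665 genes were called, 13% higher and 9.6% lower. In the WT livers (3 against 3) 0 of 9 passed, where 2.05% of 15693 genes were called. There, 2 of the 9 had an unadjusted p under 0.05, the Wald test of DESeq2 called 2 (*Pck1* and *Slc2a5*, both lower) and limma on TPM called 0. The groups did not overlap in CPM for 2 genes over both labels (12.5% of all genes tested), for 5 under the KO label (42.8%) and for 3 in WT (24.9%). For 8 of 9 genes the fitted change had the same sign under both labels, the exception being *Khk*.

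**Figure D2:**
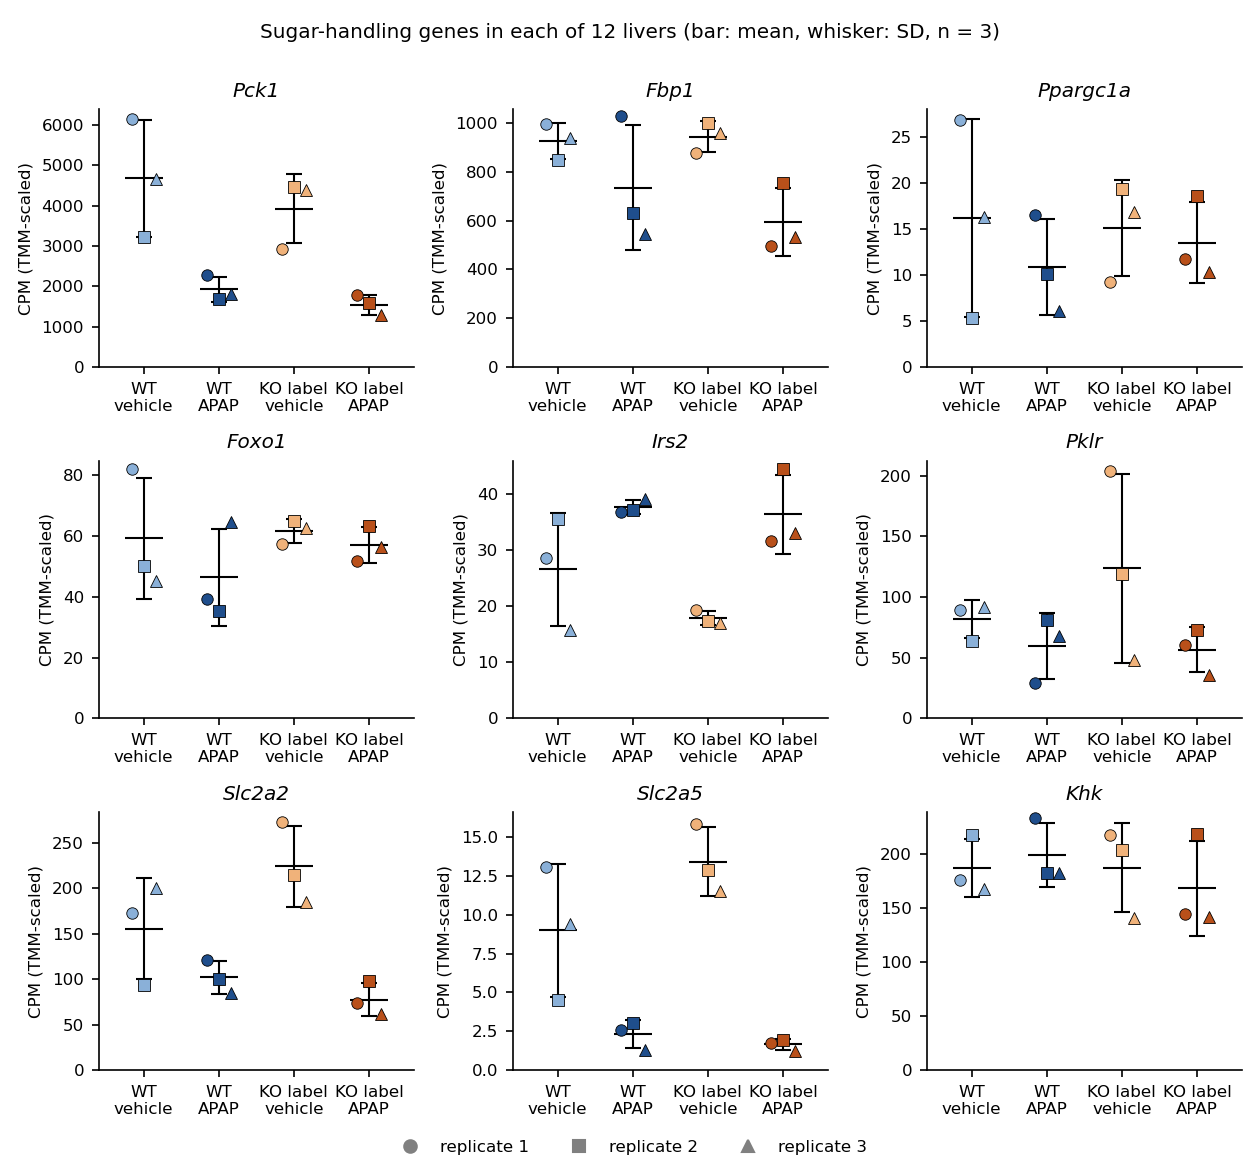
TMM-scaled CPM of each gene in each liver, by group, on axes that start at 0; marker shape is the replicate, the horizontal bar the mean and the whisker the SD (n = 3). The APAP livers lie below the vehicle livers for *Pck1* and *Slc2a5* under both labels, and *Irs2* lies higher after APAP under both.

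*Pck1* (chr2:173153073-173159274), encoding the cytosolic phosphoenolpyruvate carboxykinase that commits oxaloacetate to glucose, was the most abundant of the 9 in every group. It measured 6144.5, 3221 and 4657 CPM in the 3 WT vehicle livers and 2272, 1678 and 1811 CPM in the WT APAP livers. In the livers labelled KO it measured 2932.5, 4463 and 4387 CPM with vehicle and 1774, 1577 and 1282 CPM after APAP. Every APAP liver was below every vehicle liver. The log2 change was -1.31 ± 0.18 (SE) over both labels, a 2.49-fold drop (adjusted p = 0.000272). It was -1.34 ± 0.22 under the KO label (adjusted p = 0.00528) and -1.27 ± 0.30 in WT (adjusted p = 0.0821). The WT value was near the KO-label value in size and did not pass. It passed when all 12 livers shared 1 estimate of spread (adjusted p = 0.0130) and with DESeq2 (adjusted p = 0.000526).

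*Fbp1* (chr13:62864753-62888298) encodes fructose-1,6-bisphosphatase, which removes a phosphate late in the route to glucose. Vehicle livers were tightly grouped, at 997, 849 and 939 CPM in WT and 877, 1000 and 961 CPM under the KO label. After APAP the WT livers measured 1028, 631 and 547 CPM and the livers labelled KO 497, 754 and 533 CPM. WT APAP replicate 1 was thus the highest of the 12 in CPM, whereas its TPM, 688, was below that of every WT vehicle liver (827 to 1161), so the overlap in WT depends on the scale. Under the KO label the scale worked the other way: the groups were apart in CPM and overlapped in TPM, with APAP replicate 2 at 931 and vehicle replicate 3 at 853. The log2 change was -0.50 ± 0.17 over both labels (adjusted p = 0.0452) and -0.66 ± 0.19 under the KO label (adjusted p = 0.0363), a 1.58-fold drop. In WT it was -0.33 ± 0.28 (adjusted p = 0.582). The call was not firm. Over both labels it was lost with DESeq2's size factors (adjusted p = 0.0518). In each of the 2 comparisons it was also lost in most of the fits that left out 1 liver. The adjusted p reached 0.122 in each, without KO APAP replicate 3. Without WT APAP replicate 1 the change over both labels was -0.66 (adjusted p = 0.00236). A predicted gene, *Gm38679*, overlaps *Fbp1* and had at most 303 counts in a liver.

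The genes of 2 transcriptional drivers of gluconeogenesis did not pass the test. *Ppargc1a* (chr5:51454249-52115853), encoding the coactivator PGC-1α that fasting induces, measured 26.9, 5.37 and 16.2 CPM in WT vehicle livers and 16.5, 10.1 and 6.11 CPM in WT APAP livers. The livers labelled KO had 9.25, 19.3 and 16.8 CPM with vehicle and 11.7, 18.5 and 10.3 CPM after APAP. The groups overlapped throughout, and the WT vehicle livers alone spanned a 5.01-fold range, the widest of any gene and group here. The log2 change over both labels was -0.37 ± 0.35 (95% confidence interval -1.13 to 0.39, adjusted p = 0.489).

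*Foxo1* (chr3:52268337-52350109), encoding the forkhead factor that insulin keeps out of the nucleus, also overlapped between treatments. It measured 82.2, 50.3 and 45.4 CPM in WT vehicle livers and 39.3, 35.4 and 64.6 CPM in WT APAP livers. The livers labelled KO were closer together, at 57.3, 65.0 and 62.6 CPM with vehicle and 51.7, 63.5 and 56.3 CPM after APAP. The log2 change over both labels was -0.23 ± 0.17 (interval -0.61 to 0.15, adjusted p = 0.369). These data hold transcript levels and no measure of the protein's location.

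*Irs2* (chr8:10984681-11008929) was the 1 gene of the 9 that rose. It encodes an insulin receptor substrate, an adaptor that carries the insulin signal in hepatocytes and whose gene is itself raised in fasting. Under the KO label it measured 19.3, 17.3 and 17.0 CPM with vehicle and 31.6, 44.4 and 33.0 CPM after APAP, with no overlap. In WT it measured 28.5, 35.6 and 15.7 CPM with vehicle and 36.8, 37.1 and 39.2 CPM after APAP. The WT groups did not overlap in CPM, with WT vehicle replicate 2 close to the APAP livers, and they overlapped in TPM. The log2 change was 0.76 ± 0.18 over both labels (1.70-fold, adjusted p = 0.00813), 1.03 ± 0.16 under the KO label (2.04-fold, adjusted p = 0.00392) and 0.51 ± 0.28 in WT (adjusted p = 0.386). Leaving out any 1 liver kept the call over both labels, with adjusted p-values of at most 0.0251.

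*Pklr* (chr3:89136122-89146815) encodes the pyruvate kinase of liver and red blood cells, which closes glycolysis, and is a classic ChREBP target. It measured 89.7, 63.9 and 91.8 CPM in WT vehicle livers and 29.4, 81.3 and 68.2 CPM in WT APAP livers. Livers labelled KO measured 203.5, 119.2 and 48.3 CPM with vehicle, a 4.22-fold range, and 60.8, 73.0 and 36.2 CPM after APAP. The groups overlapped under both labels. The log2 change over both labels was -0.79 ± 0.34 (interval -1.52 to -0.06), with an unadjusted p of 0.0360 and an adjusted p of 0.106. It passed without KO vehicle replicate 3 (-0.93, adjusted p = 0.0482), the lowest of its group.

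Both sugar transporter genes fell. *Slc2a2* (chr3:28697903-28728361) encodes GLUT2, the high-capacity transporter through which hepatocytes take up and release glucose. In livers labelled KO it measured 273, 215 and 185 CPM with vehicle and 74.0, 97.4 and 61.0 CPM after APAP, with a wide gap between the groups. In WT it measured 173, 93.4 and 200 CPM with vehicle and 121, 100 and 84.3 CPM after APAP, where vehicle replicate 2 lay among the APAP livers. The log2 change was -1.07 ± 0.23 over both labels (2.1-fold lower, adjusted p = 0.00510), -1.52 ± 0.21 under the KO label (2.87-fold lower, adjusted p = 0.00291) and -0.60 ± 0.30 in WT (adjusted p = 0.350). When WT vehicle replicate 2 and WT APAP replicate 1 were both left out, a choice made after seeing the data, the WT value was -1.01 (adjusted p = 0.0405).

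*Slc2a5* (chr4:150119344-150144168) encodes GLUT5, a fructose transporter best known from the intestine and expressed at a low level here. It measured 13.1, 4.51 and 9.40 CPM in WT vehicle livers and 2.60, 3.02 and 1.30 CPM in WT APAP livers. The livers labelled KO had 15.9, 12.9 and 11.5 CPM with vehicle and 1.75, 1.95 and 1.24 CPM after APAP. No APAP liver reached any vehicle liver. It had the largest change of the 9 genes in each of these 3 comparisons: the log2 change was -2.49 ± 0.31 over both labels (5.63-fold lower, adjusted p = 0.000167) and -3.02 ± 0.22 under the KO label (8.13-fold lower, adjusted p = 0.000192). In WT it was -1.95 ± 0.46 (3.87-fold lower, adjusted p = 0.0806), and it passed there with DESeq2 (adjusted p = 0.000813), with all 12 livers in 1 fit (adjusted p = 0.0110) and without WT vehicle replicate 2 (adjusted p = 0.0498). Of 6 enterocyte markers, *Sis* and *Alpi* had 0 counts in every liver. Of the 6, 3 could be tested, of which 0 were called over both labels and 1 had an unadjusted p under 0.05. The list, with *Vil1*, *Fabp2*, *Lct* and *Apoa4* as its other genes, summed to 260 to 949 CPM with vehicle and to 355 to 1755 CPM after APAP. The sum was not split by gene, so it does not measure intestinal material. Its part in the *Slc2a5* levels was not tested.

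*Khk* (chr5:30921436-30931248), encoding ketohexokinase, which phosphorylates fructose as the entry to its breakdown, showed no such drop. It measured 176, 218 and 168 CPM in WT vehicle livers and 233, 182 and 182 CPM in WT APAP livers. For the livers labelled KO the levels were 217, 204 and 140 CPM with vehicle and 144, 218 and 141 CPM after APAP. The groups overlapped, and the log2 change over both labels was -0.03 ± 0.15 (interval -0.37 to 0.30, adjusted p = 0.899). It did not overlap the interval of *Slc2a5*, which ran from -3.17 to -1.82.

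**Figure D3:**
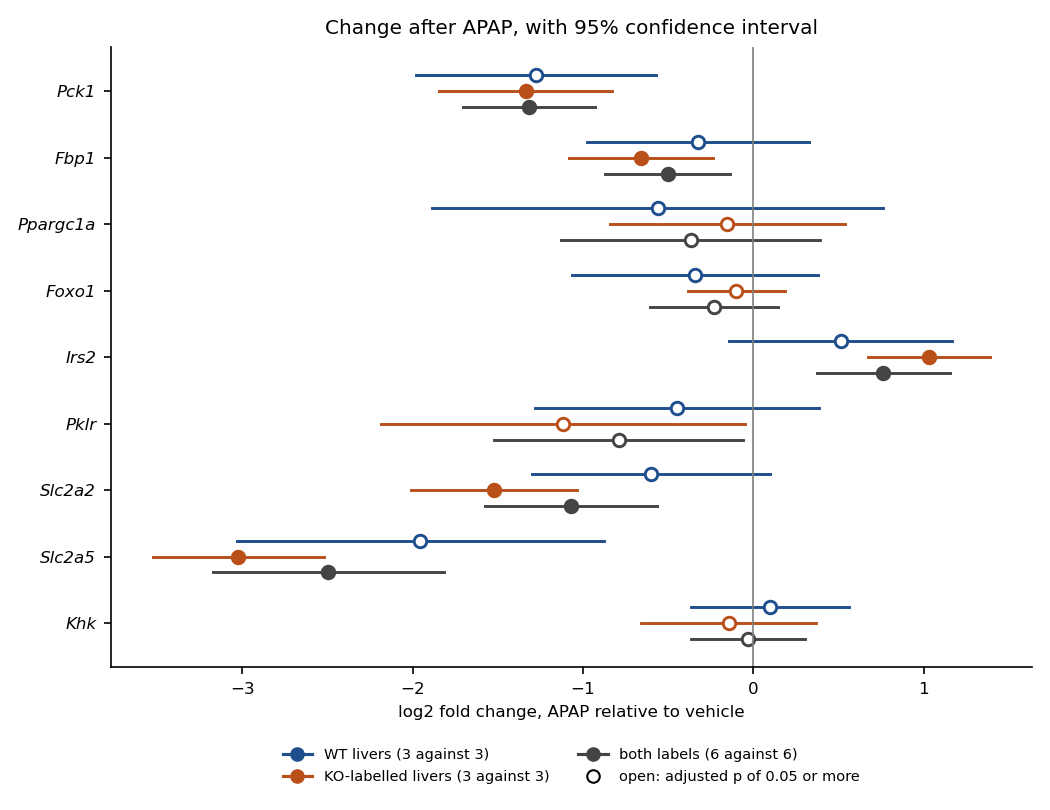
Log2 fold change after APAP with 95% confidence intervals for each gene, in WT livers, livers labelled KO and both together; filled points have an adjusted p under 0.05. *Slc2a5* lies farthest to the left (-3.02 to -1.95), *Irs2* alone lies to the right with filled points, and the WT points are all open.

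Zonation markers moved with treatment in the same livers. Over both labels, 7 of 7 pericentral hepatocyte markers fell (median log2 change -1.52), and their summed level was 9238 to 10643 CPM in the vehicle livers and 3651 to 6062 CPM in the APAP livers. Of 7 periportal markers, 1 rose and 1 fell (median -0.18), with sums of 7383 to 12493 CPM with vehicle and 8402 to 10105 CPM after APAP. None of 6 general hepatocyte markers was called over both labels, and none had an unadjusted p under 0.05 there. Under the KO label 1 of the 6 was called higher. Of 5 neutrophil markers tested, 1 was called higher over both labels, 1 of 4 under the KO label and 0 of 5 in WT, where 1 had an unadjusted p under 0.05. They summed to 1.20 to 18.0 CPM in WT vehicle livers and 11.7 to 125 CPM in WT APAP livers, and to 1.42 to 2.52 CPM and 1.10 to 8.06 CPM under the KO label, with overlap in both. Over both labels, 2 of 2 adipocyte and 1 of 5 endothelial markers tested were called higher, and 1 of 6 stellate cell markers lower. Under the KO label 3 of 6 stellate cell and 1 of 5 endothelial markers were called lower. None of 6 Kupffer cell and 5 erythroid markers was called in any APAP comparison. The erythroid sum was 334 to 17366 CPM in WT APAP livers and 333 to 353 CPM in WT vehicle livers. The part of these cell markers in the changes above was not tested.

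The second question was whether the genotype label altered these genes or their response. WT and KO-labelled livers did not differ detectably: 0 of 9 genes passed with vehicle (0.0262% of 15262 genes called) or after APAP (0.0309% of 16174), and 0 of 9 had an unadjusted p under 0.05 in either, with 0 called by DESeq2 or limma. With vehicle the widest fitted differences were those of *Pklr* (log2 difference, WT relative to the KO label, -0.60 ± 0.45), *Slc2a5* (-0.58 ± 0.35), *Irs2* (0.57 ± 0.27) and *Slc2a2* (-0.53 ± 0.29). After APAP they were *Slc2a5* (0.50 ± 0.38) and *Slc2a2* (0.41 ± 0.23). The intervals remained broad, reaching for *Slc2a5* after APAP from -0.37 to 1.38.

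The genotype by treatment interaction (the APAP change in WT minus that under the KO label) passed for 0 of 9 genes and for 0% of the 16509 genes tested, of which 848 had an unadjusted p under 0.05 and DESeq2 called 9. *Slc2a2* alone among these genes had an unadjusted p below the threshold: its fall was larger under the KO label by 0.92 ± 0.39 on the log2 scale (interval 0.07 to 1.78, edgeR's unadjusted p = 0.0371 and adjusted p = 0.872). The next was *Slc2a5*, at 1.07 ± 0.53 (interval -0.10 to 2.24, adjusted p = 0.872). With the 2 WT livers of lowest scaling factor left out, these values were 0.51 and 0.65. For *Pck1* the interaction was 0.06 ± 0.37 (interval -0.74 to 0.86) and for *Fbp1* 0.33 ± 0.34 (interval -0.40 to 1.07). A call under the KO label and none in WT is therefore not a shown difference for any of these genes.

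**Figure D4:**
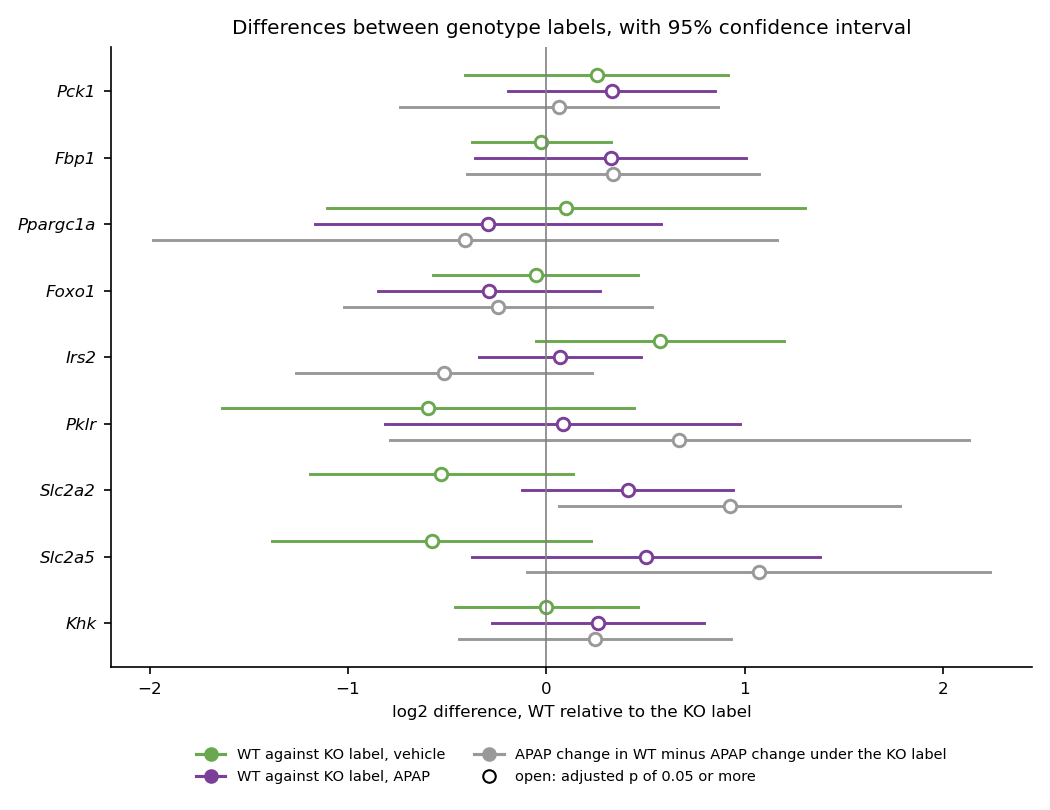
Log2 differences between genotype labels with 95% confidence intervals, with vehicle, after APAP, and as the interaction; every point is open (adjusted p of 0.05 or more). The interval of the *Slc2a2* interaction (0.07 to 1.78) is the 1 interval that lies wholly on one side of 0.

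The wider pathway was covered by 11 lists holding 163 genes besides the 9. Over both labels 28 of 159 tested genes rose and 35 fell, 39.6% of those tested beside the 25.4% of all genes. With the KO label 25 rose and 28 fell of 158. In WT 3 rose (*Pfkp*, *Sirt1* and *Trib1*) and 2 fell (*Slc2a9* and *Pdk1*) of 157, with 53 at an unadjusted p under 0.05. No list gene passed for genotype with vehicle, genotype after APAP or the interaction, where 13, 4 and 2 had an unadjusted p under 0.05 and DESeq2 called 2 with vehicle. The median log2 change of all genes tested over both labels was 0.01, and the values that follow are from that comparison.

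Among 20 gluconeogenesis enzymes and partners 1 rose and 5 fell, *Pck1* and *Fbp1* included (median -0.26). *Slc37a4*, the carrier of glucose 6-phosphate into the endoplasmic reticulum, fell from 206 to 280 CPM in WT vehicle livers to 120 to 170 CPM in WT APAP livers (log2 change over both labels -0.85 ± 0.15, adjusted p = 0.00124). The alanine transaminase gene *Gpt* (-0.64 ± 0.12) and the glutaminase gene *Gls2* (-0.56 ± 0.15) fell too, the latter not passing without KO APAP replicate 3 (adjusted p = 0.0504). *Pck2*, the mitochondrial counterpart of *Pck1*, rose (0.87 ± 0.21, adjusted p = 0.00893) from a far lower level, 1.18 to 1.88 CPM with vehicle and 2.12 to 3.97 CPM after APAP. Its change was 1.34 ± 0.29 in WT (edgeR's adjusted p = 0.0653) and 0.42 ± 0.23 under the KO label (adjusted p = 0.218). The *Pck2* interaction had an unadjusted p of 0.0187 and an adjusted p of 0.872 with edgeR. The last enzyme of the route, *G6pc*, chosen after its values were seen, did not pass (-0.31, adjusted p = 0.552). In the 10 reversible steps shared with glycolysis, *Aldoa* rose (0.96 ± 0.13) while *Aldoc* (-1.15 ± 0.21) and *Eno3* (-0.64 ± 0.14) fell.

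Glycolytic commitment steps leaned the other way over both labels, with 5 of 15 higher and 1 lower (median 0.40). The labels apart did not share this lean. The median was 0.38 in WT (1 of 14 higher, 0 lower) and -0.05 under the KO label (1 of 15 higher, 1 lower). *Pkm*, the pyruvate kinase of most other tissues, rose (1.04 ± 0.22) where *Pklr* did not pass. *Pfkp*, a platelet-type phosphofructokinase, rose (1.01 ± 0.25). *Hkdc1*, a hexokinase-like gene, was called from traces: it was at 0 in the 3 WT vehicle livers and at most 0.512 CPM in any liver, and it did not pass with limma on TPM (adjusted p = 0.0625). The gene that fell was *Pfkfb1*, the liver enzyme that sets fructose 2,6-bisphosphate (-1.32 ± 0.22).

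Of 9 tested transporter genes 1 rose and 4 fell. The list's median over both labels was -0.41, and that of the 7 genes other than *Slc2a2* and *Slc2a5* was 0.53. The labels apart differed in sign here. The 6 other genes tested had a median of 0.68 in WT and of -0.63 under the KO label. The gene that rose was *Slc2a1*, encoding GLUT1, the general glucose transporter (1.19 ± 0.19, adjusted p = 0.000741), from 7.32 to 18.1 CPM with vehicle to 21.2 to 39.2 CPM after APAP. *Slc2a9*, a urate and sugar transporter, fell by 0.90 ± 0.09 on the log2 scale (adjusted p = 2.88e-05), and *Slc2a8* fell by 0.50 ± 0.12. In fructose and polyol handling 5 of 9 fell and 0 rose (median -0.50, 5 at an unadjusted p under 0.05): besides the transporters these were *Sord*, sorbitol dehydrogenase (-0.92 ± 0.18), and *Glyctk*, glycerate kinase (-1.02 ± 0.21).

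Among 24 galactose and glycogen genes 2 rose and 6 fell (median -0.17). *Gys2*, the liver glycogen synthase, fell (-1.20 ± 0.19) from 234 to 445 CPM in WT vehicle livers to 125 to 234 CPM in WT APAP livers, and from 289 to 322 CPM to 105 to 133 CPM under the KO label. The phosphorylase kinase subunit gene *Phka2* (-0.69 ± 0.12), the mutarotase gene *Galm* (-0.67 ± 0.11) and *Pgm2* (-0.36 ± 0.10) fell, and *Pgm1* rose (1.49 ± 0.23). The *Pgm2* call was lost without KO APAP replicate 1 (adjusted p = 0.0527).

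Of 31 transcriptional regulators 7 rose and 5 fell (median -0.03). The nuclear receptor genes *Nr4a1* (5.33 ± 0.90) and *Nr4a3* (4.22 ± 0.70) rose most, with *Nr4a3* at 0 in some vehicle livers. *Nr4a1* was at 0.597 to 1.76 CPM in the vehicle livers. After APAP it was at 6.32 to 295.8 CPM in WT (mean 105, SD 165) and 8.41 to 25.9 CPM under the KO label. Its log2 change under the alternatives ran from 3.17 to 5.59. *Sirt1*, the deacetylase of PGC-1α, rose (1.70 ± 0.18, adjusted p = 5.28e-05). *Klf15*, a fasting-induced activator of gluconeogenic genes, fell (-1.38 ± 0.19), as did *Ppara*, the fasting nuclear receptor (-1.20 ± 0.17).

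Of 24 insulin signalling genes 7 rose and 3 fell (median 0.13). The receptor gene *Insr* fell (-0.70 ± 0.13), and so did *Pde3b* (-0.80 ± 0.16), the phosphodiesterase that insulin activates. Among those that rose with *Irs2* were *Trib1*, encoding a pseudokinase (2.31 ± 0.24, adjusted p = 4.10e-05), *Grb10*, encoding an adaptor that restrains the insulin receptor (1.28 ± 0.22), and *Socs1*, encoding a feedback suppressor of cytokine signalling (2.66 ± 0.49). In glucagon and cyclic AMP signalling 2 of 15 rose and 5 fell (median -0.04). The glucagon receptor gene *Gcgr* fell (-0.56 ± 0.11, adjusted p = 0.00255), from 275 to 347 CPM with vehicle to 177 to 239 CPM after APAP, as did *Adcy6*, an adenylyl cyclase (-0.96 ± 0.20), and *Prkacb*, a catalytic subunit of protein kinase A (-0.52 ± 0.09). *Pde4b*, a phosphodiesterase that breaks down cyclic AMP, rose (1.96 ± 0.29), and so did *Prkar1a*, a regulatory subunit of protein kinase A (0.32 ± 0.09), though not when any of 4 livers was left out (adjusted p up to 0.0619, without KO vehicle replicate 2).

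At the pyruvate dehydrogenase step, which decides whether pyruvate is oxidised or spared for glucose, 3 of 11 rose and 4 fell (median -0.07). The kinase gene *Pdk4*, which restrains the complex in fasting, rose (2.25 ± 0.28, adjusted p = 0.000143), whereas *Pdk2* fell (-1.17 ± 0.21). The phosphatase genes split likewise, with *Pdp1* higher (1.12 ± 0.20) from below 1 CPM and *Pdp2* lower (-1.13 ± 0.19), and the subunit gene *Pdhb* rose (0.50 ± 0.10). Of 11 ChREBP targets, with *Slc2a2*, *Pklr* and *Khk* among them, 4 fell and 0 rose (median -0.47, 6 at an unadjusted p under 0.05). They were *Slc2a2*, *Rgs16* (-2.55 ± 0.54), *Arrdc4* (-0.67 ± 0.16) and *Mlxipl*, the gene of ChREBP itself (-0.47 ± 0.16, adjusted p = 0.0470), whose call was lost when any of 9 livers was left out (adjusted p up to 0.118, without KO APAP replicate 3).

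**Figure D5:**
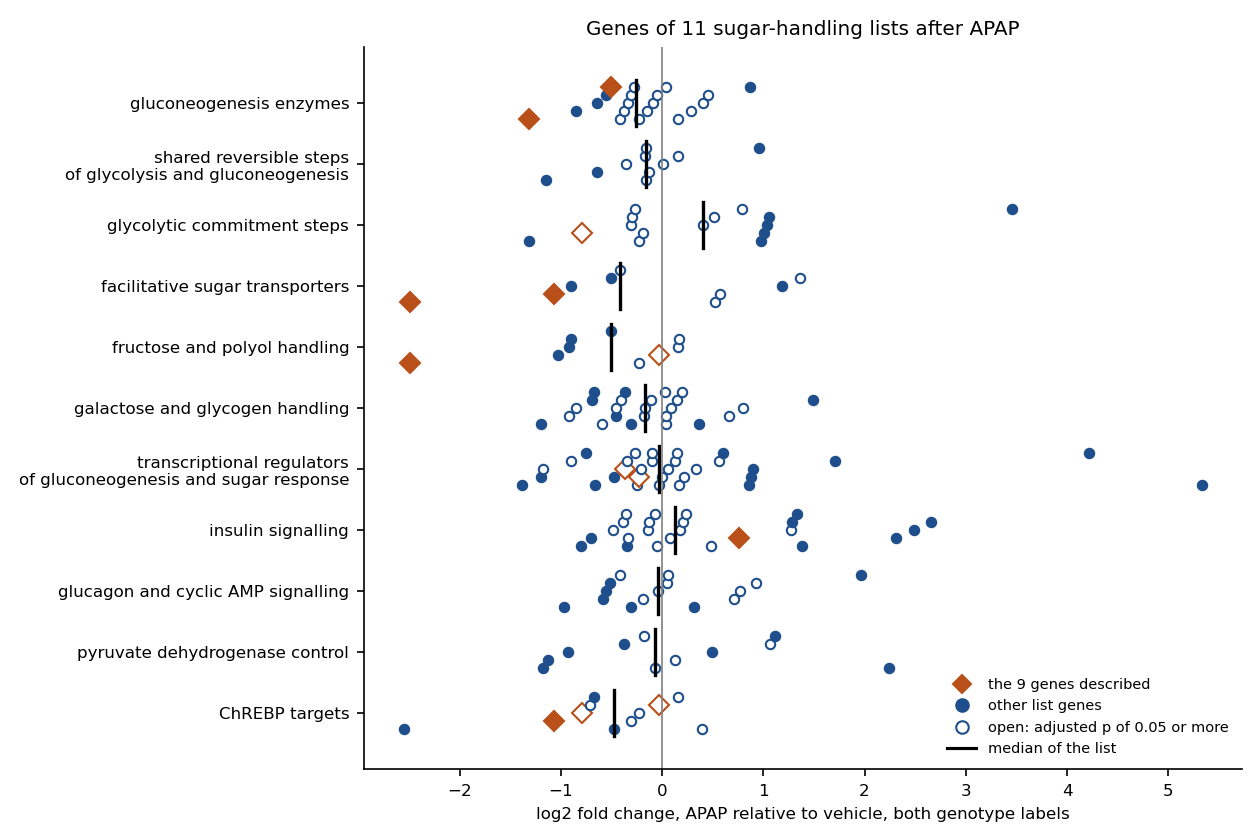
Log2 fold change after APAP over both labels (6 against 6 livers) for every tested gene of the 11 lists; diamonds are the 9 genes described, filled symbols have an adjusted p under 0.05, and the black bar is the list's median. Fructose handling (median -0.50) and ChREBP targets (-0.47) lie to the left and glycolytic commitment steps (0.40) to the right.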

How the data were processed

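Whole-liver poly-A RNA was sequenced from 12 mice (stranded library, paired-end NovaSeq). The counts that the authors deposited are whole numbers per gene, not normalized. Their TPM values, as deposited, served to compare levels between genes, and the deposited FPKM values entered no result. The submitters' processing notes name FastQC 0.11.7, Trimmomatic 0.38, HISAT2 2.1.0, Bowtie2 2.3.4.1 and StringTie 2.1.3b with mm10. Whether counting used strand is not given in the sources used here, and 4 of the 9 genes overlap another gene, which had at most 303 counts (*Gm38679*, at *Fbp1*), and at most 25, 4 and 2 for *Hcn3* (at *Pklr*), *9530052E02Rik* (at *Irs2*) and *1700112D23Rik* (at *Slc2a2*).

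The total count per liver was 49737950 to 69566079. After TMM scaling and the filterByExpr filter, edgeR 4.0.16 (R 4.3.3) gave quasi-likelihood tests on counts, with Benjamini-Hochberg adjustment over all genes tested (threshold 0.05). Each 2-group comparison used its own 6 livers. The comparison over both labels had genotype as a covariate, and it and the interaction used all 12. CPM is TMM-scaled. The paper's own scale was logged, quantile-normalized TPM. Alternatives were DESeq2 1.42.0 (its size factors within edgeR, and its Wald test), fits without a filter, with all 12 livers, with a replicate block or with each liver left out, and limma 3.58.1 on quantile-normalized log2(TPM + 1). The script was tested on simulated data. Labels name separate mice, and p-values measure the spread between these livers. Promoters and coordinates are RefSeq's (GRCm38.p6, the build mm10).

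The 9 genes and the lists were chosen with earlier results of these data known. From each pathway list, at most 5 other genes past the threshold over both labels were named, by smallest unadjusted p, and list genes past the threshold in WT were named too; *G6pc* was named after its values were seen. A further gene is not reported here.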

Additional observations from a re-analysis of the deposited data

How the results depend on the processing

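Calls of the 9 genes over both labels and under the KO label came to 4 or 5 under every alternative run. The genes behind these counts were not always the same. Without KO vehicle replicate 3, *Pklr* passed (edgeR's adjusted p = 0.0482 over both labels and 0.0327 under the KO label) and *Fbp1* did not. With other livers left out, *Fbp1* was the gene lost where the count was 4. The WT counts moved more, and the cause was not tested. In WT, 0 of 9 genes passed, against 2 with DESeq2's Wald test, 2 with all 12 livers in 1 fit and 3 (*Pck1*, *Slc2a2*, *Slc2a5*) without the 2 WT livers of lowest scaling factor, the last chosen after seeing the data; leaving out each liver gave 0 to 1. WT pathway list genes (5) came to 34 with DESeq2, 3 with no filter, 32 in the 12-liver fit, 17 without those 2 livers, and 0 to 7 with each liver left out. Under the KO label these genes (53) came to 31 in the 12-liver fit and 32 to 53 with each liver left out. With vehicle, DESeq2 called 2 list genes by genotype and edgeR 0.

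Replicate numbers did not pair the livers: deviations of same-numbered livers correlated at -0.27 to 0.065 over 2000 genes. With the number as a replicate block, 0 WT list genes passed, 4 of 9 genes over both labels (*Fbp1* lost) and 5 under the KO label, and genotype differences with vehicle turned to -0.10 for *Ppargc1a* and 0.017 for *Khk*.

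Other sign changes were among values near 0 or with wide spread, all uncalled; the cause was not tested. *Khk* with vehicle was -0.0003, and 0.0080 with DESeq2's size factors and with its Wald test. The *Pck1* interaction was -0.0031 with limma and -0.30 without the 2 WT livers, and that of *Fbp1* -0.060 without them. With each liver left out, log2 values ranged as follows. *Ppargc1a* ran from -0.999 to 0.013 in WT, -0.45 to 0.055 under the KO label, -0.73 to 0.0016 by genotype after APAP, -0.48 to 0.51 with vehicle and -0.85 to 0.18 in the interaction. *Khk* ran from -0.040 to 0.22 in WT, -0.12 to 0.041 over both labels and -0.17 to 0.13 by genotype with vehicle. *Fbp1* ran from -0.0099 to 0.53 by genotype after APAP, -0.080 to 0.026 with vehicle and -0.0054 to 0.54 in the interaction. *Foxo1* ran from -0.36 to 0.099 by genotype with vehicle and -0.56 to 0.072 in the interaction. After APAP by genotype, *Irs2* ran from -0.024 to 0.24 and *Pklr* from -0.21 to 0.40. The *Pck1* interaction ran from -0.15 to 0.32.

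*Slc2a5*, at 1.24 to 3.02 CPM after APAP, was the least abundant of the 9 there by CPM.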

Other observations

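Within a group, the 9 genes often ranked the same liver high or low in CPM. Under the KO label after APAP, replicate 2 was the highest of its group for 8 of 9 genes and replicate 3 the lowest for 6. In WT vehicle livers replicate 2 was the lowest for 6 genes (*Pck1*, *Fbp1*, *Ppargc1a*, *Pklr*, *Slc2a2* and *Slc2a5*) and the highest for *Irs2* and *Khk*. Among vehicle livers labelled KO, replicate 3 was the lowest for 5 genes. These are counts over 9 genes that share libraries, with no test.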
